A study of Homo sapiens with 2 samples.

Results

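NUDT21 eCLIP peaks were described in 9 genes that encode RNA-binding proteins of messenger ribonucleoproteins (mRNPs) and of the FET family: YBX1, YBX3, PABPC1, PABPC4, EWSR1, TAF15, G3BP1, RBM33 and RBM39. The genes were chosen from this same peak list, with its earlier results known, and a peak was counted as a member when its midpoint lay in the body of 1 of them in GENCODE release 44. The rule found 65 of the 20499 peaks, in 7 of the 9 genes. PABPC4 and TAF15 held 0 peaks. That these genes held peaks is therefore how they were chosen, and is given as a description with no test.

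The material was J-Gamma1, an established T-cell acute lymphoblastic leukemia line (a Jurkat derivative that lacks phospholipase C gamma 1), irradiated with UV-C light of 254 nm so that proteins were crosslinked to the RNA they touched. The 2 samples were of the same line, with the antibody as the only difference in the labels: 1 library made with a NUDT21 antibody and 1 input. Values come from the peaks called in the antibody library, and the input library was not used here. With 1 library there is no replicate check, no comparison between conditions and no p-value of a difference, and the sequencing depth is unknown. The list gives no strand, so a peak belongs to a gene by position alone. For none of the 65 peaks did another annotated gene lie at the midpoint.

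NUDT21 is the RNA-binding subunit of cleavage factor Im, which recognises UGUA upstream of poly(A) sites and takes part in the choice between them. Y-box proteins (YBX1, YBX3) coat mRNA in the cytoplasm, poly(A)-binding proteins (PABPC1, PABPC4) cover the poly(A) tail, and FET proteins (EWSR1, TAF15) bind RNA in the nucleus and associate with transcription. G3BP1 nucleates stress granules, RBM33 acts with the RNA demethylase ALKBH5, and RBM39 is a splicing factor related to U2AF. Many transcripts of such genes have alternative exons or retained introns, and their annotated transcripts overlap.

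The sequences below are those on which the description turns, read from hg38 on the strand of the gene, 5′ to 3′ and 30 nt each. In the first 6, capitals mark UGUA (written TGTA). RBM33 23 is from a canonical 3'UTR end, EWSR1 9 and G3BP1 9 from other 3'UTR peaks, and YBX1 3 from a 5' splice site peak. EWSR1 6 lies in intron 8 of the canonical transcript, in a 3'UTR of other transcripts. RBM39 4 lies in coding sequence that is also an alternative 3'UTR, with its midpoint 5 nt from an annotated transcript end. In the last 5, capitals mark the first 6 bases of the intron at a 5' splice site lying within the peak. Such a site lay in 12 member peaks, and the 5 printed are only those in which these bases were GUGAGU (written GTGAGT). The number after each name counts the peaks of the gene in genome order.
RBM33 23, chr7:155781423-155781452, plus strand: gtttgaactatatTGTATGTAatttggaag
EWSR1 9, chr22:29300441-29300470, plus strand: agggcctcttaacTGTAacaatgttcatgg
G3BP1 9, chr5:151811228-151811257, plus strand: accaTGTAttccaTGTAtgtgttctctctc
YBX1 3, chr1:42693501-42693530, plus strand: aggaagaTGTAttTGTAcaccaggtgagtg
EWSR1 6, chr22:29290652-29290681, plus strand: TGTAacattaaagTGTAaacttttgtgttt
RBM39 4, chr20:35705262-35705291, minus strand: tgtgattgaagaaTGTAataaacatggagg
YBX1 3, chr1:42693509-42693538, plus strand: gtatttgtacaccagGTGAGTgcttgtgta
RBM33 4, chr7:155680894-155680923, plus strand: ttagatgaatttacaGTGAGTcttttctcc
RBM39 3, chr20:35704653-35704682, minus strand: gcaggtggtttgctgGTGAGTttgaattta
RBM39 5, chr20:35709209-35709238, minus strand: cccagcagactgaagGTGAGTtgaagtgtt
RBM39 8, chr20:35738953-35738982, minus strand: agaacgtagcaaaaaGTGAGTtttaagaag

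The 7 genes differed in the number of their peaks. RBM33 held 23 peaks, or 35.4% of the members, RBM39 held 10, EWSR1 and G3BP1 held 9 each, YBX1 held 7, YBX3 held 4 and PABPC1 held 3. Over all protein-coding genes, 30.5% held a peak, with a median of 2 peaks among those that did, and 83.1% of these had 4 or fewer. In that order 24 genes had more peaks than RBM33, 201 had more than RBM39 and 1442 had more than PABPC1. Shares over the 65 members therefore weigh RBM33 most, and the region, UGUA and transcript end shares below are also given without it, an alternative chosen after the data were seen.

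The height of a peak was given in 2 ways. The deposited Score, a pileup, came in whole steps of 0.228, and heights are given here as the number of steps; the fold enrichment is Score plus 1 over the local background plus 1. The members had a median of 9 steps (1 to 23) and a median fold enrichment of 2.46 (1.17 to 5.45). Over the 17692 peaks that lay in the body of 1 protein-coding gene, the medians were 3 steps and 1.61. Of the members, 64 of 65 (98.5%, exact Clopper-Pearson 95% interval 91.7 to 99.96) had 5 or more steps, against 44.9% of all peaks in protein-coding genes. Intervals cover counting error only. The exception was an RBM33 peak in intron 3, with 1 step and a fold enrichment of 1.17.

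**Figure D1:**
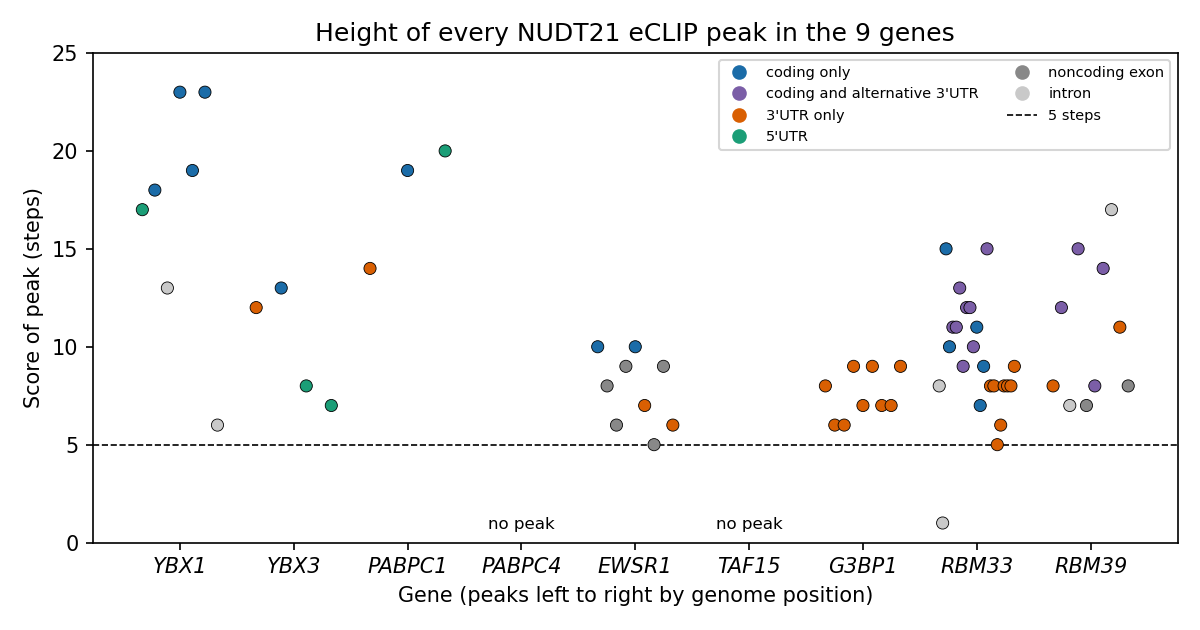
Score of each of the 65 member peaks in steps (vertical axis) by gene (horizontal axis), with 1 point per peak of the 1 NUDT21 antibody library, coloured by region class, and a dashed line at 5 steps. YBX1 holds the 2 highest points, at 23 steps, the 9 G3BP1 points lie between 6 and 9 steps, and 1 RBM33 point lies under the line.

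YBX1 (chr1:42682418-42703805, plus strand) carried the highest fold enrichment of the members. Its peak in coding exon 7 (chr1:42700868-42701085) reached 23 steps and a fold enrichment of 5.45, with an FDR of 0.0296, and it was the 1 member of 65 with an FDR under 0.05, against 0.107% of all peaks in protein-coding genes. A peak in coding exon 5 (chr1:42696703-42696783) had the same 23 steps, a fold enrichment of 4.67 and an FDR of 0.469. Of the members, 62 had an FDR of 1, so that most of these peaks rest on an unadjusted p-value.

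Of the 7 YBX1 peaks, 4 lay in coding sequence, 1 in the 5'UTR (17 steps, fold enrichment 3.0) and 2 in introns (13 steps and 3.68 in intron 3, 6 steps and 2.26 in intron 7). No midpoint lay in its 1856-nt 3'UTR. Peaks covered 35.5% of its coding sequence, 61.5% of its 148-nt 5'UTR and 3.77% of its 3'UTR, the last through the ends of the peaks in exon 7 and intron 7. The 3'UTR held 11 UGUA, all outside peaks.

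YBX3 (chr12:10699089-10723323, minus strand), the paralog of YBX1, had lower peaks and a different order of regions. Its highest peak lay in coding exon 9 (chr12:10701256-10701334), at 13 steps and a fold enrichment of 3.58. A 3'UTR peak (chr12:10699498-10699548) had 12 steps and 3.01. The other two peaks lay 8 and 7 steps high in the 5'UTR of exon 1, with fold enrichments of 2.37 and 2.27. None of the 4 peaks held UGUA.

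PABPC1 (chr8:100685816-100722809, minus strand) had high pileups on a high local background. Its 5'UTR peak (chr8:100721832-100721879) had 20 steps over a local background of 1.34, the highest of the members, and a fold enrichment of 2.37. A coding peak in exon 1 had 19 steps and 2.66, and the 3'UTR peak (chr8:100703075-100703314) 14 steps and 2.09. The latter was 51.3% A, held 1 UGUA and covered 53.9% of the 445-nt 3'UTR. Of the 65 members, 7 had a local background of 0.99 or more, 3 of them in PABPC1, against 1.74% of all peaks in protein-coding genes. The median was 0.192 for the members and 0.0480 over all those peaks.

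EWSR1 (chr22:29268009-29300525, plus strand), a FET gene, had 7 of its 9 peaks in 1 intron. Intron 8 of the canonical transcript (chr22:29288787-29291561, 2775 nt) makes up 9.30% of the intron length of the gene, and the other 15 introns held 0 midpoints. These 7 peaks had 5 to 10 steps and fold enrichments of 1.91 to 2.93, and covered 22.3% of the intron. All 7 lay in exons of retained-intron transcripts in the annotation, and 2 of them also in exons of protein-coding transcripts: 1 in coding sequence (10 steps) and 1 in a 3'UTR (7 steps). Of the 5915 canonical introns of all genes with a midpoint, 26 (0.440%) held 7 or more, and intron 8 of EWSR1 was the 1 of these under 3000 nt. The limit of 7 is the count of this intron and that of 3000 nt lies just above its length. Being the 1 intron within both limits is therefore a description and lends no support.

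The other two EWSR1 peaks lay in canonical exons. The coding peak in exon 7 (chr22:29286950-29287032) had 10 steps and a fold enrichment of 2.54, and the 3'UTR peak (chr22:29300399-29300458) 6 steps and 2.09. UGUA was counted 6 times in the 619 nt of intron 8 inside peaks (9.69 per kb) and 12 times in the 2156 nt outside (5.57 per kb), with overlapping exact Poisson intervals of 3.56 to 21.1 and 2.88 to 9.72 per kb. TAF15, the other FET member, held 0 peaks, and its canonical 3' end has UGUA at 74, 44 and 4 nt before it. YBX1, PABPC1, PABPC4 and G3BP1 likewise have UGUA in the last 150 nt before the canonical end with no peak over that window.

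**Figure D2:**
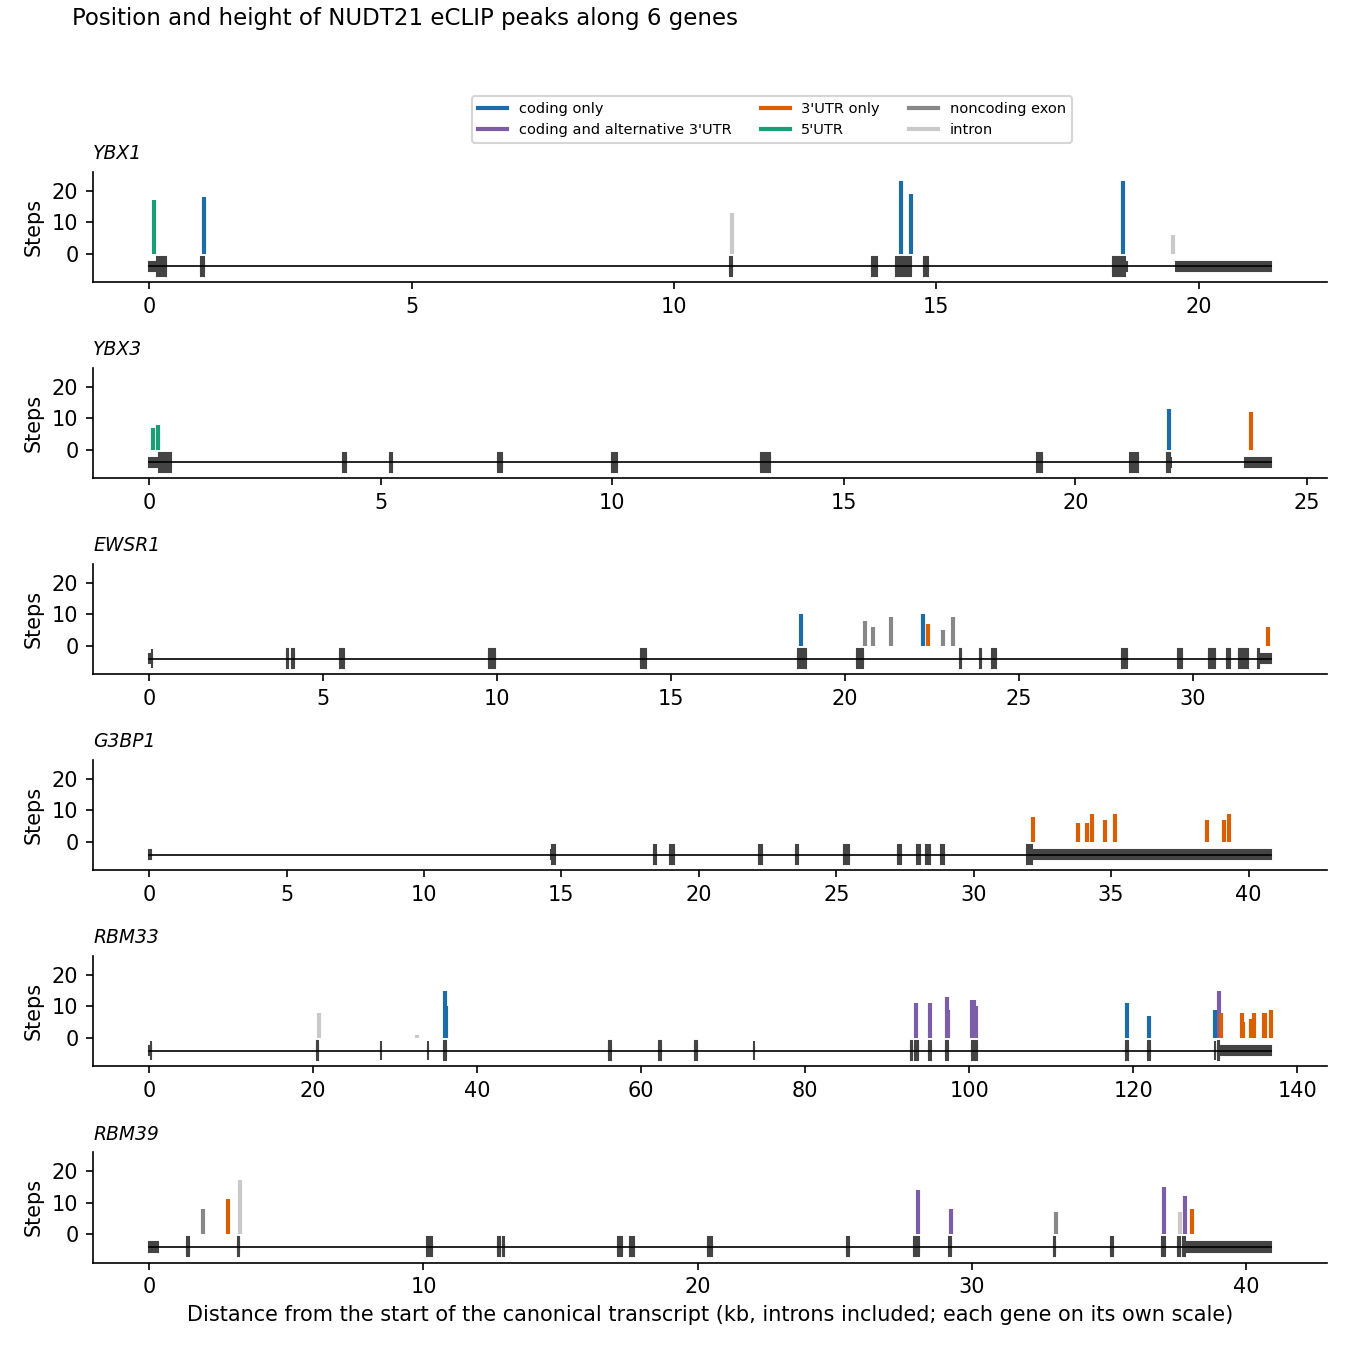
Member peaks of 6 genes (PABPC1 not drawn) along the canonical transcript, 5′ to 3′ in kb with introns included and each gene on its own scale; boxes are exons, taller where coding, and each vertical line is a peak with its height in steps and its region class as the colour. The 7 EWSR1 peaks of intron 8 stand between neighbouring exons, and the 9 G3BP1 peaks stand over the long 3'UTR.

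G3BP1 (chr5:151771045-151812911, plus strand) had all 9 midpoints in its 8694-nt 3'UTR, of which peaks covered 7.09%. Their heights were close together, at 6 to 9 steps and fold enrichments of 1.89 to 2.61. Along the 3'UTR they left a stretch of 3270 nt with no peak, between the sixth peak (ending at 151807119) and the seventh (starting at 151810390). The highest by fold enrichment, at 2.61 with 9 steps and 3 UGUA, was the last (chr5:151811205-151811287). UGUA was counted at 9.74 per kb inside the peaks and 6.68 per kb outside, with intervals of 3.57 to 21.2 and 5.02 to 8.72.

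RBM33 (chr7:155644451-155781485, plus strand) carried peaks along its mRNA. By the midpoint, 5 lay in coding sequence only, 8 in coding sequence that is also 3'UTR in other transcripts, 8 in 3'UTR only and 2 in introns. Of the 8 in both classes, 7 lay in exons 11 to 14, whose 3'UTR annotation comes from transcripts marked for nonsense-mediated decay. Peaks covered 42.2% of the coding sequence, the highest share of the members, and 13.8% of the 6439-nt 3'UTR. The highest fold enrichment was 3.74 (13 steps) in exon 13 (chr7:155741843-155742009). Peaks in exons 5 (chr7:155680632-155680706) and 18 (chr7:155774997-155775238) reached 15 steps, but their local background of 1.00 left a fold enrichment of 2.21 each.

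The last RBM33 peak (chr7:155781367-155781479, 9 steps, fold enrichment 2.68) lay at the canonical 3' end, which is at 155781480. Its 3 UGUA began 105, 45 and 41 nt before the end, and an AAUAAA began 21 nt before it. Over the whole 3'UTR, this peak included, UGUA was counted at 4.51 per kb inside peaks and 5.76 per kb outside. In the coding sequence the values were 0.675 and 1.97 per kb, from counts of 1 and 4.

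RBM39 (chr20:35701347-35742312, minus strand) had 10 peaks, none in coding sequence only. Its highest fold enrichment, 4.12 with 15 steps and an FDR of 0.373, lay in exon 15 (chr20:35705204-35705310), where other transcripts have 3'UTR. The highest pileup, 17 steps, lay in intron 3 (chr20:35738940-35738989) over a local background of 1.00, with a fold enrichment of 2.44. Peaks lay in canonical introns in 5 of 10 cases, of which 2 were in intron 2, in exons of retained-intron or nonsense-mediated decay transcripts (11 and 8 steps).

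Over the 65 members, 13 midpoints (20%, interval 11.1 to 31.8) lay in coding sequence only, 12 (18.5%, 9.92 to 30.03) in coding sequence that is also an alternative 3'UTR, 23 (35.4%, 23.9 to 48.2) in 3'UTR only and 6 (9.23%) in introns. Without RBM33 these shares were 19.05%, 9.52%, 35.7% and 9.52% of 42 peaks, and the share in noncoding exons was 16.7% in place of 10.8%. The 7 member peaks in noncoding exons came from EWSR1 (5) and RBM39 (2). RBM33 alone held 8 of the 12 peaks in coding sequence that is also an alternative 3'UTR. Coding sequence of either kind held 38.5% (26.7 to 51.4) of members and 28.6% without RBM33, against 34.1% of all peaks in protein-coding genes and 62.7% of those with 5 or more steps. 3'UTR only held 19.2% of all peaks in protein-coding genes and introns 40.4%. Coding sequence that is also an alternative 3'UTR held 9.61% of all these peaks, and noncoding exons 3.80%. Peaks of 5 or more steps in all genes, which resemble the members in height, had 44.4% in coding sequence only and 24.3% in 3'UTR only. Coding sequence that is also an alternative 3'UTR held 18.3% of these taller peaks, noncoding exons 2.29% and introns 8.39%. The intron class leaves out midpoints in exons of any other transcript. By the canonical transcript alone, introns held 16 of 65 members (24.6%, interval 14.8 to 36.9), and 33.3% without RBM33. That share was 44.3% of all peaks, 12.2% of those with 5 or more steps, 41.1% in the hnRNP genes and 40.6% in the SR genes. No test of these differences is possible with 1 library, and the genes were chosen with their peaks known.

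The hnRNP and SR families, 2 other groups of RNA-binding protein genes in the list, were set beside the members. In the hnRNP genes, 39.3% of 56 peaks lay in 3'UTR only and 26.8% in introns. In the SR genes, the figures were 46.9% and 18.8% of 64 peaks. Coding sequence only held 25% in the hnRNP genes and 4.69% in the SR genes. Coding sequence that is also an alternative 3'UTR held 7.14% and 17.2%, and noncoding exons 0% and 12.5%. Shares of 5 or more steps were 78.6% and 93.8%.

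**Figure D3:**
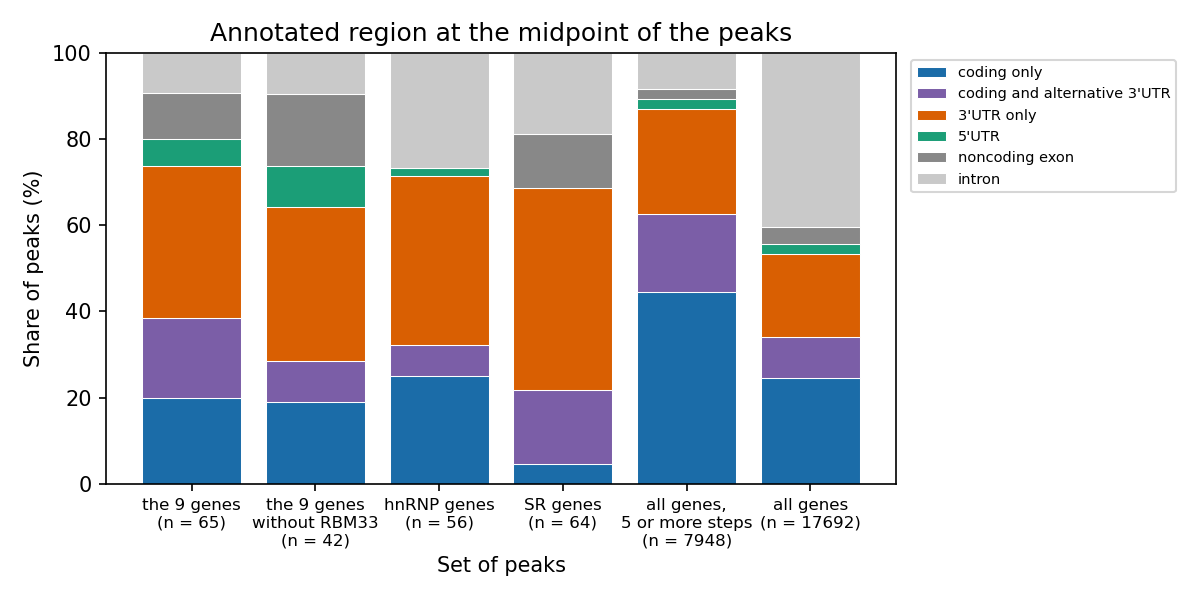
Stacked shares of peaks (percent) by region class at the midpoint, for the 9 genes (65 peaks), the same without RBM33 (42), the hnRNP genes (56), the SR genes (64), peaks of 5 or more steps in all protein-coding genes (7948) and all peaks in protein-coding genes (17692). The share in introns, outside the exons of every annotated transcript of the gene, is 9.23% for the 9 genes. It is 8.39% for peaks of 5 or more steps and 40.4% for all peaks.

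Of the members, 22 of 65 (33.8%, interval 22.6 to 46.6) held UGUA on the strand of the gene, against 44.6% of all peaks in protein-coding genes. Member peaks were shorter, with a median of 80 nt against 147 nt, and among all peaks within 10 nt of the length of each member the share was 28.0%. Among peaks of 5 or more steps in all genes it was 26.8%. Without RBM33 the share of members was 40.5%. On the opposite strand 20% of the members held UGUA, against 40.8% of all peaks and 26.1% of those with 5 or more steps. Inside and outside peaks of the same 7 canonical transcripts, UGUA was found at 6.85 and 6.06 per kb in 3'UTRs (14 and 118 counts) and at 2.08 and 2.88 per kb in coding sequence (5 and 29 counts). Both pairs of intervals overlapped. The most UGUA in a peak was 3, reached in YBX1 peak 3, the last G3BP1 peak and the last RBM33 peak.

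**Figure D4:**
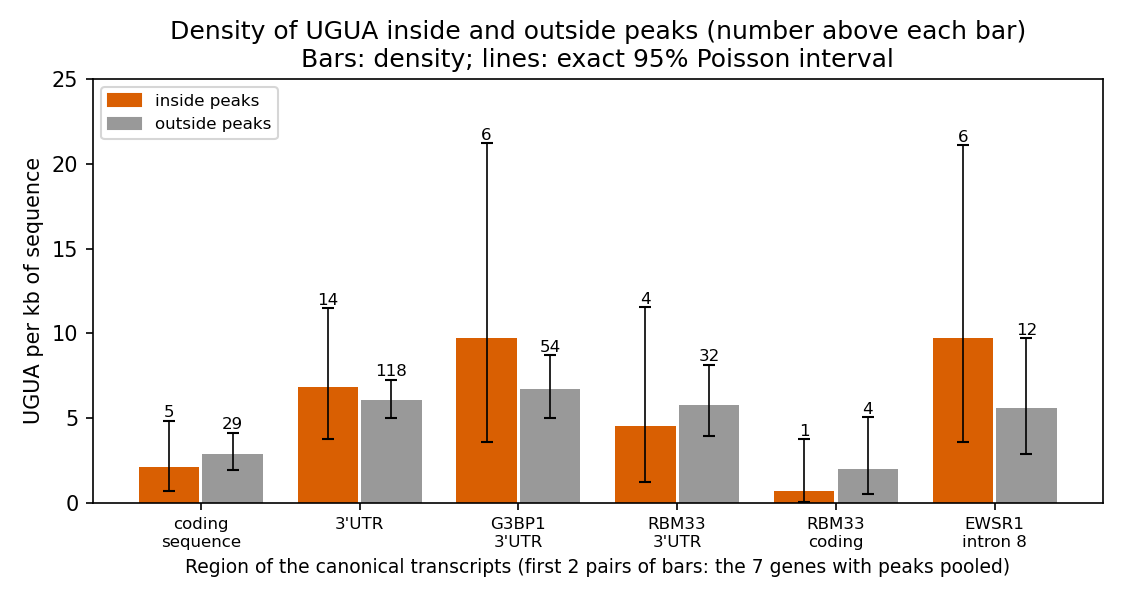
Density of UGUA, per kb, inside and outside peaks, for the coding sequence and 3'UTR of the canonical transcripts of the 7 genes pooled, and for 4 single regions, with the number of UGUA above each bar and exact 95% Poisson intervals. The intervals inside and outside overlap in each pair, as in EWSR1 intron 8 (9.69 and 5.57 per kb).

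Few of the members lay at the 3' end of the canonical transcript. Only the last peaks of EWSR1 and RBM33, 2 of 65 (3.08%, interval 0.375 to 10.7), had midpoints within 150 nt of it, compared with 0.882% of all peaks. Within 150 nt of any annotated transcript end of the gene lay 19 members (29.2%, 18.6 to 41.8), and 38.1% without RBM33. The share was 14.1% of all peaks, 21.9% of those with 5 or more steps, 32.1% in the hnRNP genes and 32.8% in the SR genes. Of the 19, 6 were in RBM39, whose annotation holds 47 transcripts. In the last 150 nt before the canonical end, UGUA was found in 7 of the 9 genes, in neither YBX3 nor RBM39. No such share over all protein-coding genes is given here, so this count is not shown to be particular to these genes. YBX3 had an AAUAAA 25 nt before its end, and YBX1 an AUUAAA 22 nt before its own. EWSR1, with UGUA 68 nt and AAUAAA 26 nt before its end, and RBM33 were the genes with a peak over this window.

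Of the members, 12 of 65 (18.5%, interval 9.92 to 30.03) lay across 5' splice sites, a share near the 17.9% of all peaks in protein-coding genes. The share was 25.9% of peaks of 5 or more steps, 25% in the hnRNP genes and 12.5% in the SR genes. The 12 came from 3 genes: 4 in YBX1, 3 in RBM33 and 5 in RBM39. They reached 3 to 343 nt into the intron (median 29), and the intron side was 39 nt in 3 of the YBX1 peaks. The peak caller extends reads along the genome, so that an edge past the end of an exon does not show that intron was read. The first 6 intron bases were GUGAGU in 5 of the 12, compared with 13.3% of all 3160 peaks of this kind and 12.9% of 77379 canonical introns. This hexamer was singled out after its count was seen; GUAAGU, the commonest in canonical introns (14.8%), was in 1 of the 12.

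Of these 12, 4 had a midpoint in the intron within 10 nt of the splice site: 1 in YBX1 (intron 3, 7 nt) and 3 in RBM39 (introns 16 and 13, 7 nt each, and intron 3, 4 nt). They were chosen for this after their positions were seen. These 4 made up 6.15% of the 65 members (interval 1.70 to 15.0), against 179 of the 17692 peaks in protein-coding genes. Such midpoints were found in 142 of the 7948 peaks of 5 or more steps (1.79%). They were found in 1 of 56 peaks in the hnRNP genes and 2 of 64 in the SR genes. The difference was not tested. All 4 had GUGAGU, as the sequences above show, against 25 of 179 (13.97%) such peaks over all genes. Their heights ran from 7 to 17 steps.

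Some members have pseudogenes of high similarity, whose reads can be shared. By name, the annotation holds 10 pseudogenes of YBX1, 13 of PABPC1 and 1 each of YBX3, G3BP1 and RBM39, and 0 peaks of the list overlapped any of them. How the authors treated reads that map to several places was not given in the sources used here.

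Other genes of the same pathways were described from lists chosen with earlier results known. Of 20 genes listed as mRNP partners, 15 held a peak (75%, against 30.5% of all protein-coding genes). That comparison takes in every protein-coding gene, and expression was not measured. LARP1, a regulator of ribosomal protein mRNAs, held 10 peaks. The highest LARP1 peak had 15 steps and a fold enrichment of 3.80. Of 13 stress granule and FMRP family genes, 10 held a peak (76.9%), the highest in ATXN2L (16 steps, 2.32) and in G3BP2, the paralog of G3BP1 (13 steps, 3.52).

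Of 7 FET family and cold-inducible genes, 4 held a peak (57.1%, against 30.5% of all protein-coding genes). The highest lay in CIRBP, a cold-inducible protein (14 steps, 2.66), and in MATR3, a nuclear matrix protein (13 steps, 3.51). Of 18 other RBM and related splicing genes, 14 held a peak (77.8%), the highest in RBM26 (14 steps, 3.66) and RBM15 (13 steps, 3.07). ALKBH5, the partner of RBM33, held 2. In the hnRNP and SR lists, HNRNPDL (30 steps, 2.61), HNRNPD (20 steps, 2.78), SRSF11 (30 steps, 6.57) and SRSF2 (30 steps, 1.96) had the highest peaks.

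Of 9 T-cell markers, 2 held a peak (22.2%, against 30.5% of all protein-coding genes). They were CD3E, a chain of the T-cell receptor complex, with 3 peaks (highest 19 steps, fold enrichment 4.54), and CD247 with 1. Of 9 B-cell and myeloid markers, 1 did (11.1%), CD79B, with 1 peak of 1 step. The peak list does not measure expression, so a marker without a peak is not shown to be absent from the cells.

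The genes with the most similar region shares to those of the members pooled, among 240 genes with 10 or more peaks, were EDEM3 (Euclidean distance 0.166), STAG2 (0.176), ACIN1 (0.214), GTF3C4 (0.215) and UBN1 (0.221). The distance is a description over region shares of 1 library.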

How the data were processed

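Peaks were measured by eCLIP in 1 NUDT21 antibody library of J-Gamma1 cells, and 1 input library was not used here. UV-C doses were 400 mJ each, lysis took 15 min, and 40 U of RNase I acted for 5 min (from the labels). Per the study's methods the authors trimmed reads with fastp, removed duplicates by molecular identifier, removed ribosomal RNA and mapped to hg38, then called peaks with MACS2 with background windows of 1000 and 10000 nt. The aligner, and whether the input was the control, are not given in the sources used here. Fold enrichment, as deposited, is a ratio to the local background, the deposited Score is a signal (a pileup whose unit is not stated), and the deposited p-value and FDR (a q-value) are those of the caller. The methods state a q-value threshold of 0.05 for the calls, but the deposited list holds peaks above it, up to an FDR of 1, so a listed peak need not have passed that threshold.

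Peaks were placed by their midpoint in GENCODE 44, on the transcripts of their own gene; the canonical transcript is that of Ensembl. A midpoint was coding only, coding and alternative 3'UTR, 3'UTR only, 5'UTR, noncoding exon or intron. Local background was solved from Score and fold enrichment. UGUA and other motifs were searched as written, on the strand of the gene, in the hg38 reference. The members and gene lists were chosen with earlier results of these data known. Named genes were all 9 members, the highest peak of each in each class, the 2 genes of each list with the highest peak, and the 5 genes with the nearest region shares. Some values that this rule names are not reported here. Shares have exact Clopper-Pearson intervals and densities exact Poisson intervals, of level 0.95, for counting error only; nothing was tested between conditions, and depth is unknown. Alternatives were the order of classes, transcripts used, peak filters, motif window and strand, the window at the end, and leaving out RBM33. The placement and motif counts were tested on simulated peaks. Software was scipy 1.17.1, pandas 2.3.3, pysam 0.24.0, numpy 2.4.6 and matplotlib 3.10.9, run in Python 3.11.15.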

Additional observations from a re-analysis of the deposited data

How the results depend on the processing

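Of 50 values computed under an alternative, 32 moved by less than the 95% interval of the value (counts, by less than 1.5 times) and 18 by more. Keeping only peaks with an FDR under 0.05 left 1 peak, the YBX1 peak in exon 7, with a coding share of 100%, a 3'UTR only share of 0%, a median fold enrichment of 5.45, a share of 5 or more steps of 100%, and shares with UGUA and near an end of 0%. The coding share of 20% became 38.5% with coding sequence placed before 3'UTR, 35.4% on canonical transcripts and 36.9% on protein-coding transcripts, and the 3'UTR only share of 35.4% became 53.8% with 3'UTR placed first, since 12 peaks lie in both. The share of 5 or more steps became 100% over canonical exonic peaks, over peaks with a fold enrichment of at least 2, and without RBM33. The share with UGUA was 52.3% with peaks extended by 50 nt and 20% on the opposite strand. The share near an annotated end was 16.9% within 50 nt and 3.08% at the canonical end. Without RBM33, chosen after seeing the data, the coding share of either kind was 28.6%, and that of UGUA 40.5%. The share of 5 or more steps has no value of its own under a filter at 5 steps. Nor does it under the fold filter, because all 7150 peaks in protein-coding genes with a fold enrichment of at least 2 had 5 or more steps. No paired analysis was possible because there is 1 antibody library. Depth and the spread between libraries are unknown, so the 65 peaks have no measure of reproducibility.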

Other observations

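In the whole list, 2001 pairs of neighbouring peaks had starts 476 nt apart, the most common distance. None of the 58 neighbouring pairs of member peaks had it, and the closest member pair had starts 117 nt apart. A peak overlapping a member gene in any part, rather than by its midpoint, gave the same count of 65.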
